A study of Homo sapiens with 7 samples.

Results

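Cycling muscle cells of the DMSO culture were those cells of the day 15 DMSO library that carried both muscle RNA and the RNA of genes used in cell division. For each cell the muscle share was the UMIs (unique molecular identifiers, which count single RNA molecules) of the muscle genes TNNT2, ACTN2, MYH6 and TNNI1 as a percentage of all its UMIs, and a cell counted as muscle when this share reached 0.25 of the 95th percentile in the library. Members were chosen by these measured UMIs alone: a muscle cell was a member when at least 4 of 8 cycle genes (MKI67, TOP2A, CDK1, CCNB1, CCNB2, CDC20, CENPF and BIRC5) had a UMI. The rule found 288 members among 2122 muscle cells, among 4015 cells of the library and among 15305 cells of the 3 single-cell libraries of the study. The muscle cells with at most 1 of the 8 genes, 1719 in number, are called low-cycling and are what the members were set against. A further 115 muscle cells with 2 or 3 of the genes stood in neither class. The rule was a count of detected transcripts, and no cell was seen to divide.

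The study made cardiac cells from the human embryonic stem cell line H1, an established line, in order to obtain cells of the atrioventricular canal, the slowly conducting part of the heart between atria and ventricles. The cycling and low-cycling muscle cells both came from cells harvested at day 15 with DMSO, the solvent used as vehicle. Besides this library there were a day 15 library with CHIR (short for CHIR99021), which inhibits the kinase GSK3 and so activates canonical Wnt signalling, and a day 11 library whose labels name no treatment. Each group had 1 library made with a droplet kit that reads the 3′ ends of transcripts, after the cells were dissociated and live cells were sorted by exclusion of a dye. No comparison therefore has a replicate check, and no test across samples could be run. The labels give no dose of CHIR, and the 4 chromatin samples of the series were not analysed here.

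Cells that divide copy their DNA in S phase and separate the copies in mitosis, with the gap phases G1 and G2 before and after the copying. Genes for copying DNA are switched on mainly by E2F transcription factors around the entry into S phase. Genes for mitosis are held down in resting cells by the DREAM complex and switched on in G2 by MYB-MuvB and FOXM1, which act through a promoter element called the cell cycle genes homology region (CHR), often with CCAAT boxes bound by NF-Y beside it. Cardiomyocytes of the embryonic heart divide while they contract and take their sarcomeres apart in part for each division. Most leave the cycle after birth, and some then copy DNA without dividing.

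The promoters of genes that chose the members, together with those of a mitotic kinase and of DNA replication genes outside the rule, are shown because these elements are what the classes of cycle gene are known to differ in. The windows run from 250 bases before to 50 bases after each gene's start in RefSeq on GRCh38.p14, 300 bases in all, 5′ to 3′ on the gene's strand. They lie at chr1:43358731-43359030, plus strand for CDC20, chr15:59104896-59105195, plus strand for CCNB2, chr17:40417847-40418146, minus strand for TOP2A, chr10:128126374-128126673, minus strand for MKI67 and chr16:23678639-23678938, plus strand for PLK1. CLSPN lies at chr1:35769929-35770228, minus strand, and CDC6 at chr17:40287629-40287928, plus strand. Capitals mark matches on either strand to the CHR letters TTTGAA, to CCAAT, or to the E2F letters, which were TTTGGCG and, with other middle bases, TTTCCCG and also TTTGCCG as well as TTTCGCG. In MKI67 a CHR match and a CCAAT match overlap. The first 4 are genes of the rule, PLK1 is a mitotic kinase outside it, and CLSPN and CDC6 serve DNA replication.
CDC20: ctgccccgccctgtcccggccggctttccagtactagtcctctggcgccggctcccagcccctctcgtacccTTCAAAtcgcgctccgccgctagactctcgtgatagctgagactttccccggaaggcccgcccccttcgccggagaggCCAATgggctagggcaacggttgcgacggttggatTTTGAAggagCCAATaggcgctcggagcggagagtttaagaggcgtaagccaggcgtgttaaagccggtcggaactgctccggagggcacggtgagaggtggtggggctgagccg
CCNB2: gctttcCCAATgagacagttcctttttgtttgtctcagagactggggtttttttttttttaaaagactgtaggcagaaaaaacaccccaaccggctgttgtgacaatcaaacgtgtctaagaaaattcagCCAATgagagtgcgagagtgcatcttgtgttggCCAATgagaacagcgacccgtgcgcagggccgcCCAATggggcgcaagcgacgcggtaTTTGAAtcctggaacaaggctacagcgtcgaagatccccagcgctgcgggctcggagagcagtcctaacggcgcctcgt
TOP2A: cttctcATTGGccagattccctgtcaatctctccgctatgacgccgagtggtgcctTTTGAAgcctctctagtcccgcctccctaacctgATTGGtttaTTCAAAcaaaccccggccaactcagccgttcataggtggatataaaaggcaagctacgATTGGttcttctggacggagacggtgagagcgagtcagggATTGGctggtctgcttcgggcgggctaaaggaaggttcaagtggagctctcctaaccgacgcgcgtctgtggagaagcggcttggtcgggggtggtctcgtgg
MKI67: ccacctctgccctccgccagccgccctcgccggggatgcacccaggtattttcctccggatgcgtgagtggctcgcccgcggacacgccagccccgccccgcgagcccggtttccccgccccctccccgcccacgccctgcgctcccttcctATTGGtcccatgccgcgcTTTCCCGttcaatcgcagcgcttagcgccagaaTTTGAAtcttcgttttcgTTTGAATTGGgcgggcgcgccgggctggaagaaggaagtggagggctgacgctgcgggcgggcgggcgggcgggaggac
PLK1: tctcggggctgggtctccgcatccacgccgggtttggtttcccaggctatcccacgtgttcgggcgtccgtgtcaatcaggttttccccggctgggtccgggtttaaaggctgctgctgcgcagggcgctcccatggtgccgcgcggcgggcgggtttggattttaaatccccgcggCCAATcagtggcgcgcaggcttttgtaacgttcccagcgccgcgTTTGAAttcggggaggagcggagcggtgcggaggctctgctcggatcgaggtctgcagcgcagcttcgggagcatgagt
CLSPN: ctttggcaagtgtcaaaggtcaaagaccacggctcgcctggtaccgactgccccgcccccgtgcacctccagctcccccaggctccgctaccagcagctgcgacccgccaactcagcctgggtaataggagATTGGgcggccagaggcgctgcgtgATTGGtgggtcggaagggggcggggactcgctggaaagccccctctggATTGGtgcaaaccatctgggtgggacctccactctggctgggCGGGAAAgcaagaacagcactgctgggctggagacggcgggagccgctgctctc
CDC6: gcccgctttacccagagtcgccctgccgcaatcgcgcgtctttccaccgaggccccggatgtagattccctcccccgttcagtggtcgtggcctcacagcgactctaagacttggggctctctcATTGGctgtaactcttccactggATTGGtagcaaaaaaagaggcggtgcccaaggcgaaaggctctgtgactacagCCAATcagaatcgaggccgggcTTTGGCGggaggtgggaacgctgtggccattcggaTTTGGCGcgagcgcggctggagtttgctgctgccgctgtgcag

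The CCNB2 and PLK1 promoters each held a CHR match 29 bases before the start, and MKI67 held matches at 29 and 47 bases. CDC20 held CHR matches 65 and, on the other strand, 178 bases before the start, with CCAAT matches 55 and 100 bases before it. CLSPN and CDC6 held no TTTGAA in this window. They held E2F letters, CLSPN at 4 bases before the start and CDC6 at 28 bases before and 7 bases after it. Both also held CCAAT matches, and MKI67 also held E2F letters, 80 bases before its start. Over the 27305 genes with a promoter in the RefSeq table, 7.26% held CHR and CCAAT letters together and 10.4% held the E2F letters. CHR and CCAAT letters stood together in 6 of the 7 rule genes that had a promoter there, in 10 of the 13 highest genes named below that had one, and in 32 of 66 mitotic genes outside the rule (48.5%). The latter sets overlap, since all of the 13 except CDKN3 are also among the 66. Among DNA replication genes the pair stood in 2 of 27, while the E2F letters stood in 20 of 27 (74.1%). CCAAT letters with or without CHR differed less, in 19 of 27 replication genes (70.4%) and 51 of the 66 mitotic genes (77.3%), against 39.7% of all genes. Of 15 sarcomere genes with a promoter, 1 held the pair and 0 held the E2F letters. These are matches of letters and say nothing of which factor was bound in these cells.

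The members held 4760473 UMIs and the low-cycling muscle cells 23194793. A member had a median of 15436.5 UMIs and 3818 genes, against 12950 UMIs and 3396 genes in a low-cycling muscle cell. The median mitochondrial share was 4.47% in members and 5.07% in low-cycling muscle cells, and that of ribosomal protein genes 21.1% and 21.9%. Scrublet, which scores a cell by its likeness to simulated mixtures of 2 cells, called 48 of the 288 members (16.7%) and 93 of the 1719 low-cycling muscle cells (5.41%) doublets. These cells were kept, and values that differ without them by more than 1.5-fold are given beside the result. The DMSO library shared 4 cell barcodes with the CHIR library and 6 with the day 11 library.

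The number of cycle genes per muscle cell fell into separate peaks at its ends. It was 0 in 1326 muscle cells, 1 in 393, 2 in 82 and 3 in 33, and it was 4 in 40, 5 in 37, 6 in 47, 7 in 73 and 8 in 91. The threshold at 4 genes thus lay in the sparse middle, with 40 members just inside it and 33 muscle cells just outside. The threshold of the muscle share was 0.463% of a cell's UMIs, and the lowest member stood at 0.467%. There were 12 members under 0.3 of the percentile, and 11 cells with at least 4 cycle genes lay just outside, between 0.2 and 0.25 of it. The median muscle share was 0.987% in members and 1.34% in low-cycling muscle cells, and 56.9% of members against 82.8% of low-cycling muscle cells had at least 0.5 of the percentile. Both measures belong to the rule and are given as a description.

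**Figure D1:**
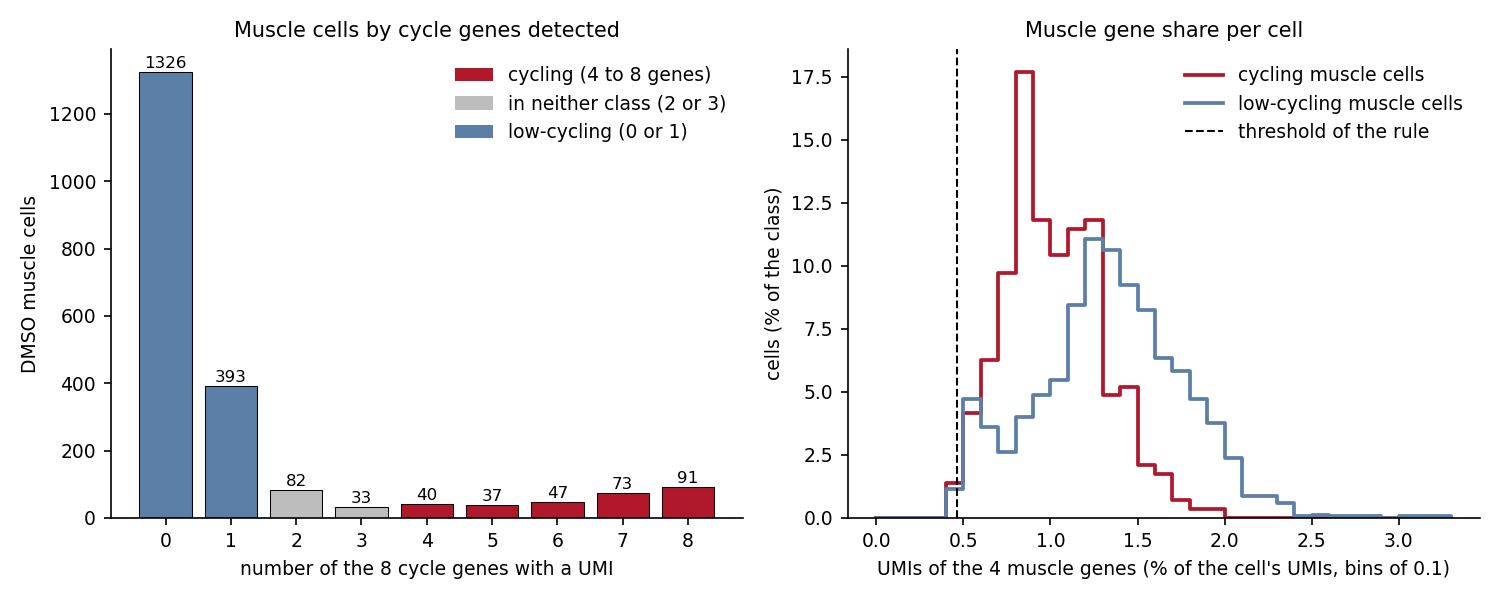
DMSO muscle cells by the number of the 8 cycle genes with a UMI (left, cells) and the percentage of UMIs from the 4 muscle genes (right, % of cells of each class in bins of 0.1). Most muscle cells had 0 or 1 of the genes and a second peak of 91 cells had all 8, while the muscle share of the 288 cycling cells lay mostly below that of the 1719 low-cycling cells.

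The rule itself fixes that members carried both kinds of RNA, so the shares of the rule genes are a description. TOP2A, the topoisomerase that untangles chromosomes, had a UMI in 89.9% of members and 1.11% of low-cycling muscle cells. CENPF, a kinetochore protein, had one in 91.3% and 2.50%, CDC20, which activates the anaphase-promoting complex, in 85.4% and 2.62%, and CCNB2, a mitotic cyclin, in 86.1% and 3.55%. MKI67, whose protein coats mitotic chromosomes, had one in 73.6% and 0.756%. CDK1, the mitotic kinase itself, was detected least often of the 8 genes among members, in 58.0%, against 4.60% of low-cycling muscle cells. Members with exactly 4 genes most often had CENPF, in 70.0% of 40 cells, and least often CCNB1, in 17.5%, whereas CCNB1 was found in 95.9% of the members with 7 genes. TNNT2 and TNNI1 had a UMI in every member. NKX2-5, a cardiac transcription factor outside the rule, had one in 95.5% of members and 93.8% of low-cycling muscle cells, against 24.3% of low-cycling non-muscle cells. These shares were taken at full depth. After every cell was thinned to 8000 UMIs, NKX2-5 had a UMI in 93.6% of members, 93.4% of low-cycling muscle cells and 15.6% of low-cycling non-muscle cells.

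Below, the level of a gene is its UMIs summed over the cells of a class scaled to 1000000 UMIs of that class (CPM). A ratio is the CPM of members over that of low-cycling muscle cells, with an exact 95% binomial interval that covers counting error only and treats UMIs as independent. A gene was measured when the mean of its 2 CPM values was at least 10, and it is called higher or lower when the ratio passed 1.5-fold. Outside the 12 genes of the rule, 7902 genes were measured, of which 660 (8.35%) were higher and 417 (5.28%) lower in members, and the median log2 ratio was -0.03. Since the rule chose cells by cycle genes, high levels of other cycle genes in members describe the cells the rule picked and are no test of anything. Gene lists were chosen with earlier results of these data known.

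Genes of mitosis made up the top of the ranking. Among genes with a mean of at least 50 CPM, ranked by the bound of the interval nearest to 1, the 15 highest were DEPDC1, DLGAP5, NUSAP1, CENPA, GTSE1, UBE2C, CDCA3, CCNA2, AURKB, ASPM, HMMR, TPX2, CDKN3, PLK1 and PTTG1, with ratios of 43.8 to 479. All 20 measured genes of mitotic kinases, cyclins and their regulators were higher in members, as were all 18 of the centromere and kinetochore, all 24 of the spindle and its kinesins, and 8 of 13 of cytokinesis, with 0 lower in any of these lists. The median log2 ratios were 5.65, 5.48, 6.09 and 3.52 in that order. PLK1, the kinase that drives entry into mitosis and spindle assembly, stood at 139 CPM in members and 2.37 CPM in low-cycling muscle cells, a ratio of 58.6 (95% interval 44.4 to 78.6). UBE2C, the ubiquitin-conjugating enzyme of the anaphase-promoting complex, stood at 454 and 3.79 CPM and had a UMI in 85.4% of members and 4.48% of low-cycling muscle cells, or 78.8% and 2.65% after every cell was thinned to 8000 UMIs. PTTG1, securin, which holds off the separation of sister chromatids until anaphase, stood at 1546 and 35.3 CPM and had a UMI in 97.6% and 24.5% of the cells, or 97.2% and 17.0% after thinning. CCNA2, the cyclin of S phase and G2, stood at 102 and 0.948 CPM. NEK2, a kinase of centrosome separation, had 391 UMIs in members and 5 in low-cycling muscle cells, and CDC25C, the phosphatase that activates CDK1, had 155 and 2, a ratio of 378 (103 to 3146).

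Of the chromosome side of the spindle, CENPA, the histone that marks centromeres, stood at 129 CPM in members and 0.647 CPM in low-cycling muscle cells, a ratio of 199 (119.6 to 357). NUF2, SPC25 and KNL1, which build the outer kinetochore, had 394, 229 and 163 UMIs in members and 6, 7 and 5 in low-cycling muscle cells. Among spindle genes, KIF4A, a kinesin of the central spindle, had 171 UMIs in members and 0 in low-cycling muscle cells. KIF20A, a kinesin needed for cytokinesis, had 435 and 3, a ratio of 706 (240.2 to 3439), and KIF2C, which takes down microtubules at kinetochores, had 288 and 4. DLGAP5, a spindle assembly factor, stood at 166 and 0.69 CPM, a ratio of 241 (147 to 423). Each of these genes was close to the counting floor in low-cycling muscle cells, where 3 UMIs are worth 0.129 CPM. Without the cells called doublets the ratios of KIF20A, KNL1 and GTSE1, whose product binds microtubules in G2 and mitosis, were 1170, 288 and 342, against 706, 159 and 195 with them.

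In cytokinesis, 8 of 13 genes were higher. DEPDC1, the highest of the ranked genes, had 590 UMIs in members and 6 in low-cycling muscle cells, a ratio of 479 (219 to 1311). CEP55, which recruits the abscission machinery, had 175 and 2, CIT, citron kinase of the midbody, 121 and 3, and ARHGAP11A, a regulator of the GTPase RhoA, 221 and 19. ANLN, the scaffold anillin of the contractile ring, stood at 67.6 and 1.68 CPM. The 5 measured genes of this list that passed no fold were SEPTIN7, SEPTIN9, SEPTIN11, RHOA and CHMP4B, which cells also use outside division, with ratios between 1.04 and 1.31.

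Chromosome condensation followed with smaller ratios on higher levels, all 19 measured genes higher and the median log2 ratio at 2.0. NCAPG, NCAPG2 and SMC4, subunits of condensins, stood at 44.7, 19.5 and 171 CPM in members and 0.517, 1.42 and 13.0 CPM in low-cycling muscle cells. HMGB2, a chromatin protein of dividing cells, stood at 941 and 61.4 CPM, a ratio of 15.3 (14.4 to 16.3), whereas its relative HMGB1 stood at 1543 and 506 CPM, a ratio of 3.05.

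Genes of DNA replication were higher as well. Of 32 in the list 21 were measured, of which 19 were higher and 1 lower in members, with a median log2 ratio of 2.08. RRM2, the S phase subunit of the enzyme that makes deoxynucleotides, stood at 61.8 CPM in members and 1.03 CPM in low-cycling muscle cells, a ratio of 59.7 (39.3 to 94.7). CLSPN, an adaptor of the replication checkpoint, stood at 21.8 and 0.56 CPM, TK1, thymidine kinase, at 30.9 and 1.16 CPM, and CDT1, a licensing factor of replication origins, at 46.6 and 2.20 CPM. PCNA, the sliding clamp, was present in both classes, at 40.3 and 14.7 CPM, a ratio of 2.75 (2.29 to 3.29). UNG, a uracil glycosylase of DNA repair, was the one lower gene, at 11.3 and 17.2 CPM, and it did not pass the fold without doublet calls, with a ratio of 0.703. The histones whose mRNA is made in S phase were higher in 6 of 7 measured genes, among them HIST1H4C at 3831 and 719 CPM, HIST1H1B at 49.8 and 0.862 CPM, HIST1H1D at 39.5 and 7.67 CPM and HIST1H3B with 119 UMIs in members and 4 in low-cycling muscle cells. HIST1H2AC, a histone gene that resting cells also transcribe, was lower, at 16.4 and 33.7 CPM.

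D-type cyclins of G1 went the other way. CCND1 and CCND2, the D-type cyclins that carry growth signals into the cycle, stood at 20.8 and 50.6 CPM in members and 38.5 and 78.6 CPM in low-cycling muscle cells, ratios of 0.54 (0.434 to 0.665) and 0.644 (0.56 to 0.737). Of the 6 measured G1 and S regulators 1 was higher and 2 lower, TFDP1, the partner of E2F factors, being higher at a ratio of 1.51 and CDK6, a kinase bound by D-type cyclins, standing at 0.689 between the folds. Without the minimum level, 7 of the 14 genes of this list were higher and 2 lower, with a median log2 ratio of 0.53. Cyclin E genes were near the floor. CCNE2 had 4 UMIs in each class, although the members held fewer UMIs in all. It was found in 1.39% of members and 0.233% of low-cycling muscle cells at full depth. Cycle inhibitors were not low in members. CDKN1B, p27, which binds cyclin-dependent kinases and is high in resting cells, stood at 39.7 CPM in members and 21.7 CPM in low-cycling muscle cells, a ratio of 1.83 (1.54 to 2.16). CDKN1A, p21, stood at 41.8 and 26.9 CPM, a ratio of 1.55 (1.32 to 1.82), which was under the fold in 6 of 14 other settings, among them 1.47 without the doublet calls, and whose log2 was 0.64 here and 0.05 after thinning before the rule. CDKN2D, an inhibitor of the kinases of D-type cyclins, stood at 67.0 and 12.9 CPM, a ratio of 5.20. CDKN1C, p57, stood at 254 and 257 CPM, and BTG2, an antiproliferative gene, at 39.5 and 58.4 CPM, a ratio of 0.676. Of the 12 measured inhibitors 3 were higher and 0 lower.

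Growth signalling genes of cardiomyocytes mostly stood between the folds, with 1 of 15 measured genes higher and 1 lower. HMGA1, a chromatin protein of growing cells, was higher at 333 and 207 CPM, and CCN2, a target of the growth regulator YAP, was lower at 43.3 and 70.1 CPM. The CCN2 ratio was 0.617, against 1.10 when a muscle share of at least 0.5 of the percentile was asked for. ERBB2 and ERBB4, receptors for neuregulin, stood at 43.3 and 36.6 CPM in members and 55.8 and 47.4 CPM in low-cycling muscle cells.

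Members differed among themselves. Over all muscle cells, the summed level of 78 mitotic genes outside the rule was 2349 CPM in cells with 0 of the 8 rule genes, 7618 CPM with 4 and 21516 CPM with 8. PLK1 stood at 2.03, 17.2 and 231 CPM in those cells, and UBE2C at 2.72, 94.3 and 820 CPM. DNA replication genes made most of their rise at low numbers of rule genes, at 468 CPM with 0 genes, 1329 CPM with 3, 1403 CPM with 4 and 1942 CPM with 8. Histones stood at 825, 2565 and 5193 CPM with 0, 4 and 8. Cells with 8 genes also had the highest median depth, 18842 UMIs against 12643.5 with 0, and the part of depth in this order was not tested. Among single members the summed mitotic level was 2034 CPM in the lowest, 14985 CPM in the median and 45149 CPM in the highest cell, and in low-cycling muscle cells the median was 2185 CPM. Across the 288 members the summed replication and mitotic levels had a Spearman correlation of 0.26 and share each cell's total, which is a description of cells of 1 library.

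Members were also set apart by CDC20, which accumulates toward mitosis. The 246 members with a CDC20 UMI stood at 17196 CPM of mitotic genes, 1674 CPM of replication genes and 3610 CPM of histones. The 42 members without one stood at 10136 CPM of mitotic genes, 2704 CPM of replication genes and 7189 CPM of histones. PCNA was 32.6 CPM with CDC20 and 92.8 CPM without it, CLSPN 16.6 and 57.0 CPM, and PLK1 156 and 24.4 CPM. CDKN1B stood at 42.0 CPM with CDC20 and 24.4 CPM without it. The muscle share was 0.982% with CDC20 and 0.956% without it. CDC20 is a gene of the rule, so members without it had at most 7 of the 8 genes, and these values are a description.

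**Figure D2:**
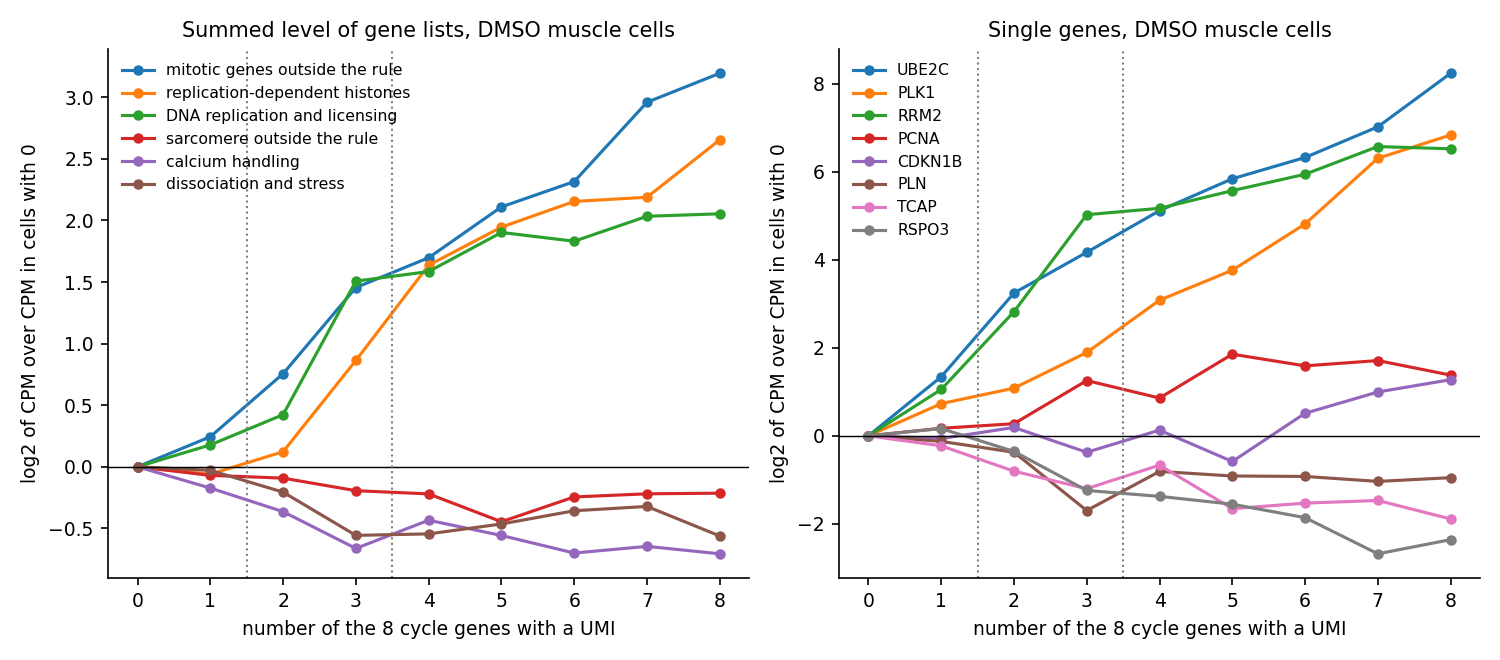
Levels in DMSO muscle cells by the number of the 8 cycle genes with a UMI, as the log2 of the CPM over the CPM in cells with 0, for summed gene lists (left) and single genes (right). Dotted lines bound the low-cycling cells (0 or 1) and the members (4 to 8). Replication genes stood at 1329 CPM by 3 genes and 1942 CPM at 8, while mitotic genes went on to 21516 CPM, and TCAP and RSPO3 were lowest in cells with many cycle genes.

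Muscle genes were lower in members by modest amounts, with a few exceptions. Of 25 measured sarcomere genes outside the rule 5 were lower and 1 was higher, and the median log2 ratio was -0.37. The rule asked both classes for muscle RNA and the members sat lower in it, so these ratios are not independent of it. TCAP, telethonin, which joins titin at the Z-disc, stood at 85.5 CPM in members and 233 CPM in low-cycling muscle cells, 2.73-fold lower (2.47 to 3.03), and had a UMI in 59.0% and 78.4% of the cells, or 42.0% and 70.5% after thinning. TNNI3, the troponin I of mature cardiomyocytes, stood at 43.9 and 83.9 CPM, MYBPC3, a thick filament protein, at 93.7 and 166 CPM, LDB3, a Z-disc protein, at 158 and 246 CPM, and DES, the muscle intermediate filament, at 12 and 21.9 CPM. Abundant sarcomere genes differed less: MYL7, the atrial light chain, had a ratio of 0.819, TTN, titin, 0.772 and ACTC1, cardiac actin, 0.98. ACTA1, the skeletal actin that embryonic heart also makes, was the one higher gene, at 147 and 71.3 CPM, a ratio of 2.07 (1.89 to 2.26). The ratio of ACTA1 was 3.25 at a muscle share of at least 0.5 of the percentile. It was 0.842 between the same classes with CHIR and 0.579 at day 11.

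Calcium handling was lower in 4 of 9 measured genes and higher in 0, with a median log2 ratio of -0.49. HRC, a calcium-binding protein of the sarcoplasmic reticulum, stood at 55.2 CPM in members and 112 CPM in low-cycling muscle cells, 2.03-fold lower (1.78 to 2.31). PLN, phospholamban, the brake of the calcium pump, stood at 206 and 388 CPM, 1.88-fold lower (1.76 to 2.01). RYR2, the calcium release channel, stood at 73.5 and 118 CPM. SLN, sarcolipin, an inhibitor of the pump in atrial muscle, stood at 14.5 and 23.1 CPM, a ratio of 0.628, and 0.144 without the doublet calls. ATP2A2, the pump itself, had a ratio of 0.71. By the number of cycle genes, PLN stood at 397 CPM with 0 of the 8 genes, 122 CPM with 3, 226 CPM with 4 and 205 CPM with 8. TCAP stood at 242, 105, 153 and 65.4 CPM in those cells, so neither gene fell steadily along this order.

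By the same ranking the 10 lowest genes were RSPO3, TCAP, NPPB, HSF1, BEX1, S100A6, FOS, CDC42EP5, HRC and PLN. RSPO3, a secreted protein that strengthens Wnt signalling, encoded on chromosome 6 at 127118671 to 127199481 of GRCh38, was the lowest, at 30.7 CPM in members and 133 CPM in low-cycling muscle cells, 4.34-fold lower (3.67 to 5.16). After thinning every cell to 8000 UMIs, RSPO3 had a UMI in 14.4% of 250 members, 29.9% of 1432 low-cycling muscle cells and 28.0% of low-cycling non-muscle cells, and in 19.1%, 33.9% and 38.3% at full depth. It went down along the order of cycle genes, at 129 CPM with 0, 49.8 CPM with 4 and 25.2 CPM with 8. NPPB, a natriuretic peptide made under strain, stood at 36.3 and 99.8 CPM, although 11.5% of members and 9.77% of low-cycling muscle cells had a UMI, and its log2 ratio was -1.45, against -0.46 when cells were thinned to 8000 UMIs before the rule, which passes no fold, and -0.85 as a mean over cells. HSF1, the master factor of the heat shock response, stood at 39.3 and 91.6 CPM, BEX1 at 70.2 and 158 CPM, S100A6, a calcium-binding protein, at 61.5 and 133 CPM, and CDC42EP5, an effector of the GTPase CDC42, at 42.9 and 89.8 CPM. The log2 ratio of CDC42EP5 was -1.06, and -1.91 without the doublet calls.

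Of the genes of regional identity, TBX2, TBX3 and NPPA stood between the folds, while some regulators of the canal and of the sinus node were lower. TBX2, which represses the chamber programme in the atrioventricular canal, stood at 45.0 CPM in members and 47.2 CPM in low-cycling muscle cells, a ratio of 0.952 (0.819 to 1.10), and TBX3, its relative in the conduction system, at 17.9 and 13.8 CPM, a ratio of 1.29 (1.00 to 1.64). After thinning, TBX2 had a UMI in 21.6% of members, 27.5% of low-cycling muscle cells and 3.0% of low-cycling non-muscle cells, against 42.4%, 39.7% and 5.82% at full depth. TBX3 was found in 12.8% of members (8.92 to 17.6), 9.01% of low-cycling muscle cells (7.58 to 10.6) and 7.15% of low-cycling non-muscle cells (5.81 to 8.69) after thinning, and in 22.9%, 13.8% and 13.3% at full depth. NPPA, the natriuretic peptide of working atrial and trabecular muscle, stood at 229 and 295 CPM, and was found in 37.6% of members and 31.8% of low-cycling muscle cells after thinning, against 48.3% and 36.9% at full depth. SHOX2, a factor of the sinus node, stood at 8.40 and 14.5 CPM, 1.72-fold lower (1.24 to 2.46). It was 2.92-fold lower at a muscle share of at least 0.5 of the percentile, where members held 9 of its UMIs and low-cycling muscle cells 196, and its log2 ratio was -1.59 for cells with at least 6 of the 8 genes. By cells, 5.20% of members and 5.24% of low-cycling muscle cells had a UMI after thinning and 5.90% and 5.64% before it.

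In the lists, 3 of 8 measured regulators of the atrioventricular canal were lower and 0 higher, namely RSPO3, HEY1, a Notch target that bounds the canal, at 20.4 and 37.6 CPM, and BMP2, the signal that induces the canal, at 63.0 and 105 CPM. HEY1 had a ratio of 0.543, and of 0.934 at a muscle share of at least 0.5 of the percentile. Of 5 sinus node factors 2 were lower, SHOX2 and ISL1, a progenitor and pacemaker factor, which stood at 16.4 and 35.0 CPM and was also the only one of 9 cardiac transcription factors past the fold. HCN4 and BMP5 had ratios of 0.793 and 0.731. NKX2-5, MEF2A, TBX5 and HAND2 had ratios of 0.841, 0.754, 0.778 and 0.718. Of 9 ventricular genes LBH alone was lower, at 180 and 331 CPM, while MYL2, MYL3 and FHL2 had ratios of 0.739, 0.805 and 0.808. Of the 4 measured atrial and chamber genes NPPB alone passed the fold, and NR2F1 and NR2F2, factors of atrial identity, had ratios of 1.18 and 0.905.

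Energy metabolism differed little. None of 14 glycolysis genes passed the fold, LDHA, lactate dehydrogenase, being the one furthest above 1 at 2494 CPM in members and 2004 CPM in low-cycling muscle cells and PFKM, the muscle phosphofructokinase, the one furthest below at a ratio of 0.712. COX6A2, a heart and muscle subunit of cytochrome oxidase, was the only one of 14 oxidative phosphorylation genes past the fold, at 107 and 174 CPM, with SDHB and CYCS at ratios of 1.24 and 1.2. CKM and CKMT2, the muscle creatine kinases of cytosol and mitochondria, were the 2 lower of 10 genes of fatty acid, creatine and oxygen supply, at 298 and 13.0 CPM in members and 498 and 22.4 CPM in low-cycling muscle cells. FABP3, the heart fatty acid binding protein, had a ratio of 0.763.

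Of 9 measured p53 targets and DNA damage genes the 2 higher ones were H2AFX, the histone that marks DNA breaks, at 110 and 18.4 CPM, and CHEK1, the kinase of the replication checkpoint, at 21.8 and 6.51 CPM. MDM2, BBC3, BAX and GADD45A, targets of p53, had ratios of 1.16, 1.21, 1.13 and 0.845. Immediate early genes, which dissociation of a tissue can induce, were lower in 3 of 9, FOS at 59.7 and 126 CPM, JUNB at 45.0 and 80.6 CPM and ATF3 at 20.0 and 32.5 CPM. EGR1 had a ratio of 0.683. These genes stood lower in members beside the lower calcium handling genes, and their part in other differences was not tested.

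Markers of other cell types moved with the doublet calls. The 10 fibroblast and mesenchymal markers summed to 636 CPM in members and 622 CPM in low-cycling muscle cells, against 3003 CPM in cycling and 3540 CPM in low-cycling non-muscle cells of the library. Of the 7 measured, DCN and LUM, matrix proteoglycans, were higher in members, at 60.3 and 87.6 CPM in members and 23.6 and 43.7 CPM in low-cycling muscle cells, and TCF21 was lower. DCN had a UMI in 13.2% of members and LUM in 18.1%, against 7.10% and 11.7% of low-cycling muscle cells, at full depth. After thinning the shares were 12% and 14.4% in members, against 5.17% and 8.66% in low-cycling muscle cells and 49.3% and 53.7% in low-cycling non-muscle cells. Without the cells called doublets the ratios of DCN and LUM were 0.617 and 0.624, 4 of the 5 markers then measured were lower and 0 higher, and the median log2 ratio of the list was -1.50, against -0.05 with all cells. The mitotic lists held the same counts without these cells, 20 of 20, 18 of 18, 24 of 24 and 8 of 13 being higher. STMN2, a neuronal gene, had a ratio of 1.36, and of 0.141 without them.

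Markers of remaining types were sparse apart from smooth muscle genes and the epicardial marker KRT19. Of 8 endothelial markers 2 were measured and 0 passed a fold, and PECAM1 and PLVAP had 0 UMIs in members. The 8 epicardial markers summed to 540 CPM in members and 665 CPM in low-cycling muscle cells, nearly all of it KRT19 at 510 and 647 CPM. The 7 smooth muscle markers summed to 1290 CPM in members and 1348 CPM in low-cycling muscle cells. Of 6 smooth muscle genes measured, ACTG2 alone passed the fold, lower, while ACTA2 had a ratio of 1.12. Pluripotency markers listed in the table summed to 8.40 and 5.22 CPM with SOX2 at 0 UMIs in members, and 0 of them were measured. Of endoderm markers FOXA2 and AFP had 0 UMIs in members, and APOA1 stood at 50.2 and 93.3 CPM. The 2 blood genes listed summed to 0.42 and 0.388 CPM.

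**Figure D3:**
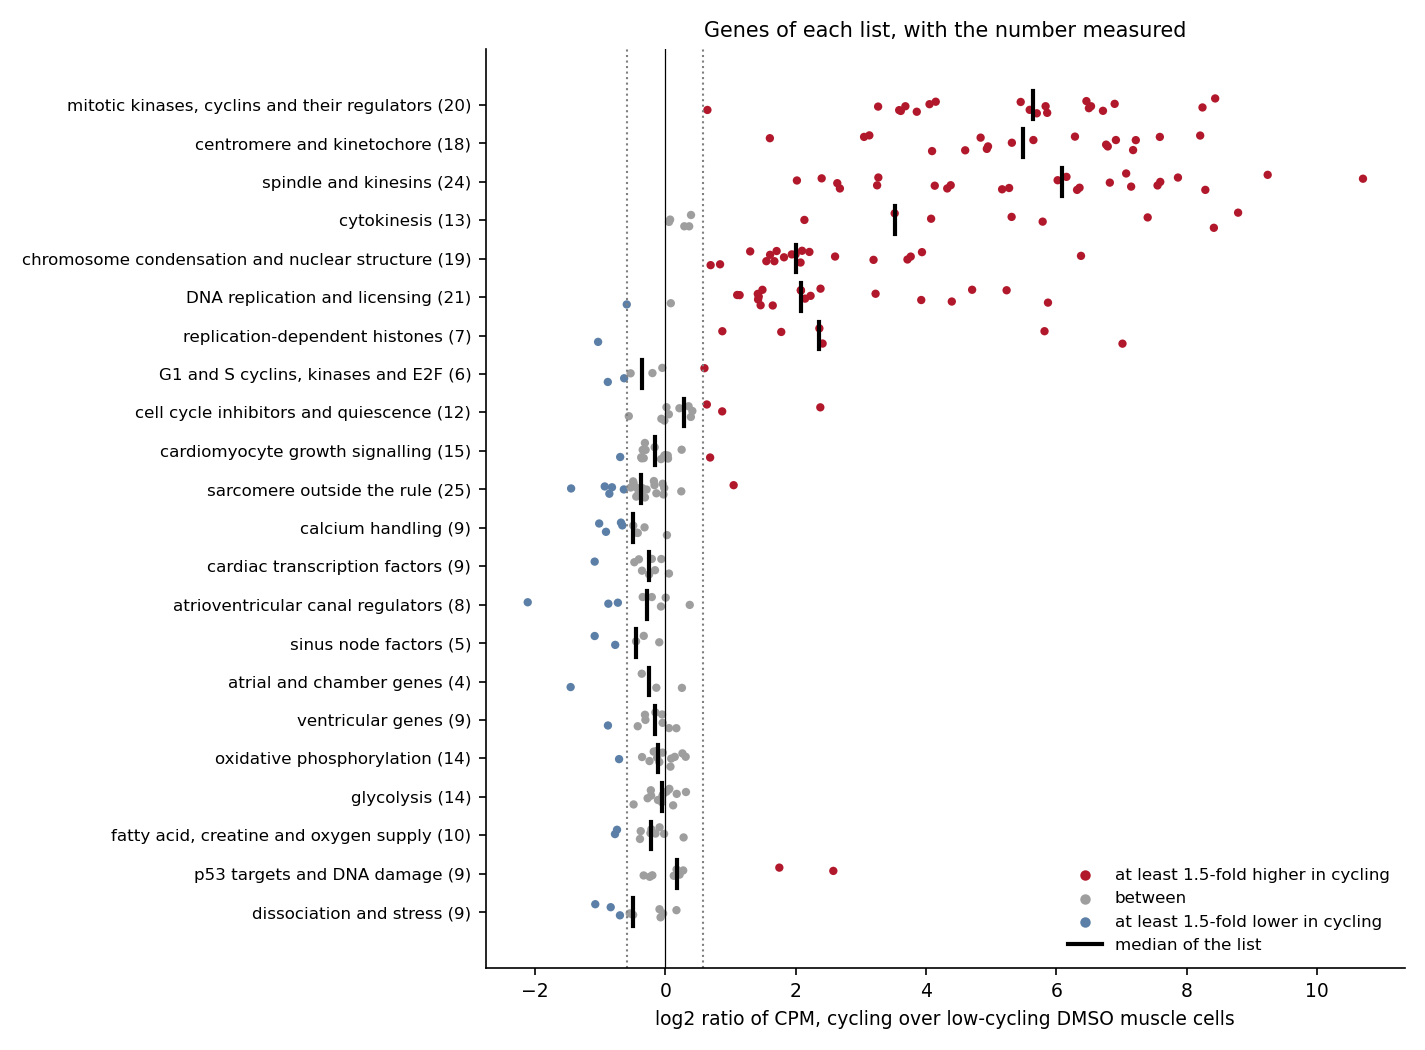
Log2 ratio of CPM in cycling over low-cycling DMSO muscle cells for each measured gene of 22 lists, red where at least 1.5-fold higher and blue where at least 1.5-fold lower in cycling cells, with the list's median as a black bar. Mitotic and replication lists lie far to the right, calcium handling has its median at -0.49, and glycolysis has its median at -0.05.

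The same contrast could be read in cells that did not choose these genes. Between cycling and low-cycling non-muscle cells of the DMSO library, where 8.68% of all measured genes were higher and 8.07% lower, all 15 of the highest named genes were past 1.5-fold in the same direction, with ratios of 17.7 to 142. They were so between cycling and low-cycling muscle cells with CHIR, where 6.42% of genes were higher and 1.89% lower, with ratios of 16.7 to 114, and at day 11, where 7.91% were higher and 6.24% lower, with ratios of 51.6 to 277. The rule chose the cycling cells there too, by the same 8 genes. Of the 10 lowest genes, 8 reached the minimum of 10 mean CPM in DMSO non-muscle cells and 5 of them were lower past the fold. With CHIR 9 reached it and 3 were lower, and at day 11 all 10 reached it and 9 were lower. RSPO3 had ratios of 0.539 in DMSO non-muscle cells and 0.285 at day 11, and with CHIR it was under the minimum at 3.29 and 6.12 CPM. TCAP had ratios of 0.419 with CHIR and 0.617 at day 11, and HRC 0.529 and 0.539, while both were under the minimum in DMSO non-muscle cells. FOS had a ratio of 1.18 in DMSO non-muscle cells and S100A6 one of 1.03 in CHIR muscle cells. Whether these ratios differ between cell classes or libraries beyond chance cannot be told with 1 library each.

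**Figure D4:**
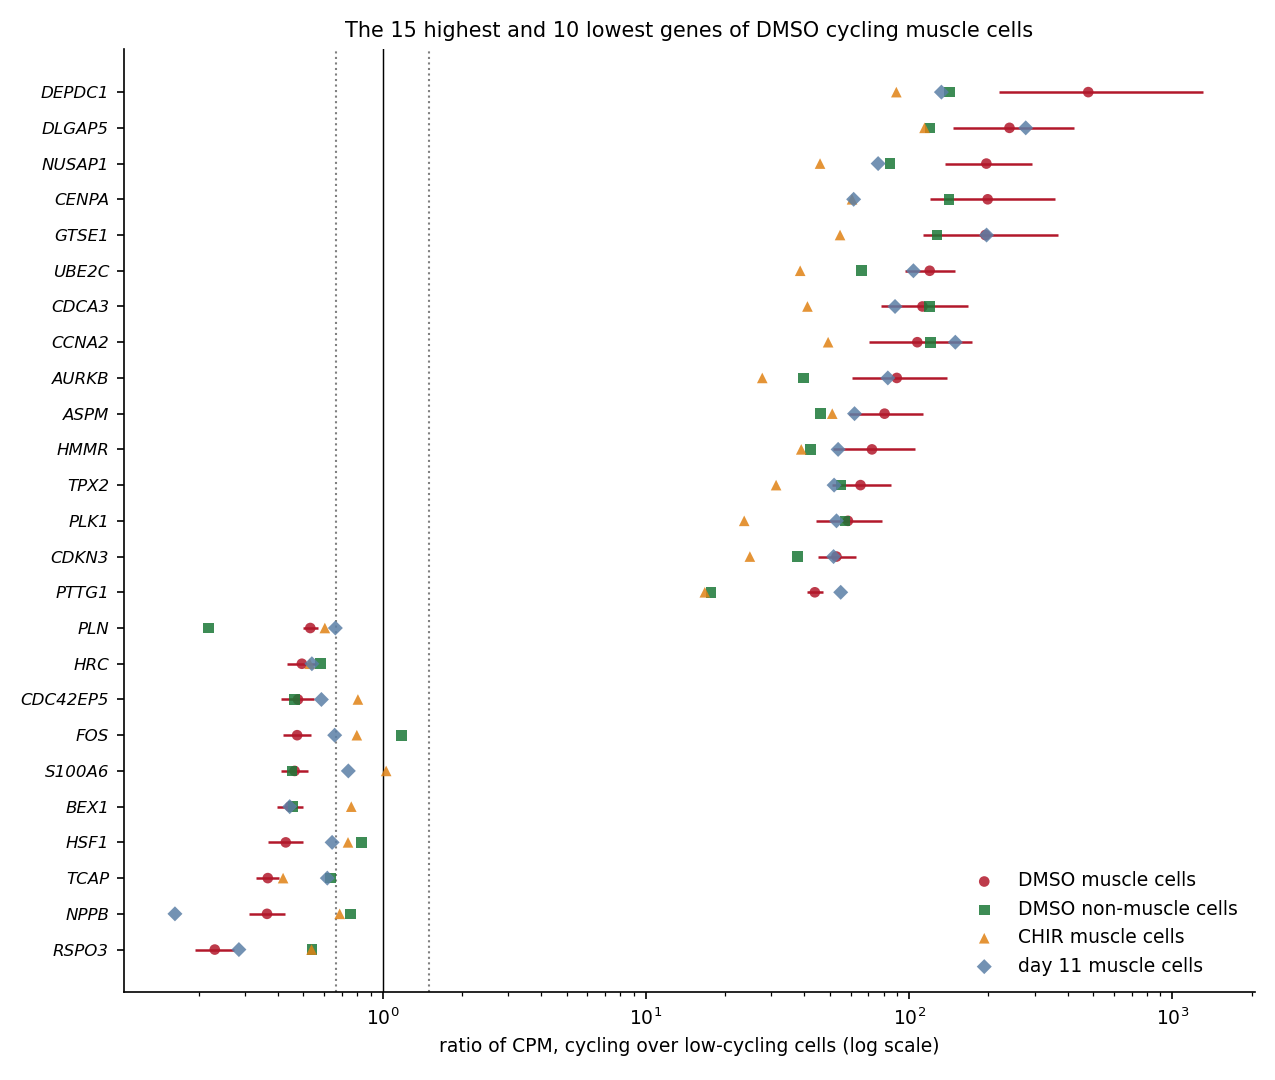
Ratio of CPM in cycling over low-cycling cells (log scale) for the 15 highest and 10 lowest genes of DMSO muscle cells, with the 95% counting interval in DMSO muscle cells, and the ratios in DMSO non-muscle, CHIR muscle and day 11 muscle cells. The 15 highest lie above 16 in every class, and the 10 lowest, of which TCAP and HRC in non-muscle cells and RSPO3 with CHIR have a mean under 10 CPM, lie below 1 except FOS in non-muscle cells at 1.18 and S100A6 with CHIR at 1.03.

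Set against the 304 cycling non-muscle cells of the same library, the members had more RNA of many mitotic genes and less of DNA replication genes. This comparison was added after values had been seen. With 7613 genes measured, 24.8% were higher and 18.1% lower in the muscle cells. Of the measured genes, 11 of 21 mitotic kinases and regulators were higher in cycling muscle cells and 1 lower, 14 of 25 spindle genes were higher and 2 lower, and 9 of 13 cytokinesis genes were higher and 3 lower. Centromere and kinetochore genes were split, with 4 of 18 higher and 4 lower. Of 20 chromosome condensation genes 4 were higher and 2 lower. By summed level, mitotic kinases and regulators stood at 5044 CPM in cycling muscle and 3400 CPM in cycling non-muscle cells. Spindle genes stood at 8396 and 8181 CPM and cytokinesis genes at 1448 and 1793 CPM. The sums were 1397 and 1460 CPM for the centromere and kinetochore and 8642 and 11019 CPM for condensation. Of 28 replication genes 0 were higher and 18 lower, and of 9 G1 and S regulators 1 was higher and 6 lower. PLK1 stood at 139 CPM in cycling muscle cells and 62.1 CPM in cycling non-muscle cells, BUB1, a kinase of the spindle checkpoint, at 68.3 and 21.8 CPM, CENPE, a kinetochore kinesin, at 95.8 and 30.7 CPM, and KIF14, a kinesin of cytokinesis, at 46.2 and 12 CPM. CLSPN stood at 21.8 and 66.0 CPM, CDC6, which loads the replicative helicase, at 7.98 and 30.8 CPM, RRM2 at 61.8 and 118 CPM, and SLBP, which binds histone mRNA, at 40.8 and 122 CPM. Cycling non-muscle cells were deeper, with a median of 24161.5 UMIs against 15436.5, and Scrublet called 6.25% of them doublets against 16.7% of the members.

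Shares of cells were also taken at an equal 8000 UMIs per cell, with the classes still chosen at full depth. KIF20A had a UMI in 44.4% of cycling muscle cells and 15.2% of cycling non-muscle cells, against 61.1% and 30.9% at full depth, and PLK1 in 54.0% and 26.7%, against 63.9% and 41.4% at full depth. CLSPN had one in 12.8% and 37.0%, against 21.2% and 58.9% at full depth, and CDC6 in 3.60% and 16.8%, against 10.1% and 33.6%. CCNA2 had one in 44.0% and 38.3%, against 59.0% and 64.8% at full depth, and UBE2C in 78.8% and 71.6%, against 85.4% and 88.8%, so that for these genes the order of the classes turned with depth. Without doublet calls, where 28.9% of all genes were higher and 20.2% lower, 12 mitotic kinases and regulators were higher and 1 lower, 18 spindle genes were higher and 2 lower, and 3 replication genes were higher and 14 lower. Of 20 chromosome condensation genes 9 were then higher and 2 lower. Centromere and kinetochore genes were higher in 6 of 18 and lower in 3, and cytokinesis genes stayed at 9 higher and 3 lower. In the CHIR library, where 15.2% of all genes were higher and 14.1% lower in cycling muscle than in cycling non-muscle cells, 1 of 21 mitotic kinases and regulators was higher and 8 lower, 0 of 25 spindle genes were higher and 8 lower, and 1 of 13 cytokinesis genes was higher and 2 lower. At day 11, where 32.4% of all genes were higher and 14.0% lower, 4 mitotic kinases and regulators were higher and 5 lower, 4 spindle genes were higher and 2 lower, and 3 cytokinesis genes were higher and 3 lower. PLK1, BUB1, CENPE, KIF14 and KIF20A were past the fold at day 11 too, with ratios of 1.61, 1.73, 2.15, 1.72 and 2.14. With CHIR their ratios were 0.725, 1.46, 1.07, 1.47 and 1.31 in that order, which pass no fold. Replication genes were higher in 0 of both libraries and lower in 15 of 30 with CHIR and 20 of 31 at day 11. Whether the libraries differ was not tested.

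**Figure D5:**
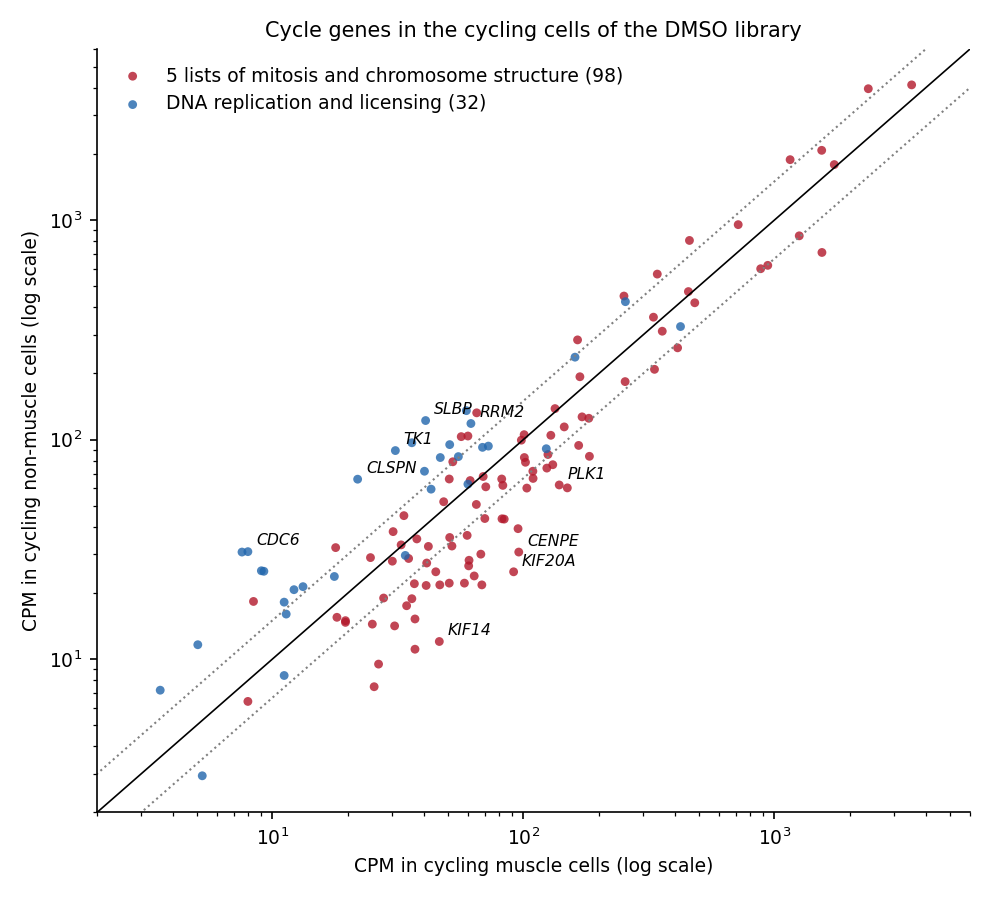
CPM in cycling muscle cells (x) and in cycling non-muscle cells (y) of the DMSO library, both on log scales, for genes of the 5 lists of mitosis and chromosome structure (red) and of DNA replication (blue), with the line of equal level and dotted lines at 1.5-fold. Most replication genes lie above the line, such as CLSPN at 21.8 and 66.0 CPM, and mitotic genes such as KIF20A at 91.4 and 25 CPM lie below it.

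Members made up 13.6% of DMSO muscle cells (exact 95% interval 12.1 to 15.1). By the same rule, with the percentile of each library, cycling cells were 269 of 1699 muscle cells with CHIR, or 15.8% (14.1 to 17.7), and 249 of 3842 at day 11, or 6.48% (5.72 to 7.31). After thinning every cell to 8000 UMIs before the rule the shares were 11.4% (9.95 to 12.9) with DMSO, 11.4% (9.89 to 13.1) with CHIR and 5.95% (5.17 to 6.80) at day 11. At equal depth the shares with DMSO and CHIR thus lay within each other's interval, and that at day 11 lay below both intervals. In non-muscle cells the cycling share was 16.1% with DMSO, 22.2% with CHIR and 19.0% at day 11 at full depth. After thinning these shares were 10.7%, 19.0% and 14.3%, so that with DMSO the order of muscle and non-muscle cells turned with depth. The intervals cover the counting of cells only, and with 1 library per group a difference between cultures cannot be told apart from one between treatments or days.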

How the data were processed

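Single-cell RNA was measured in 3 libraries. The authors deposited UMI counts for every gene and cell as whole numbers without normalization, processed with Cell Ranger 6.1.1 on GRCh38, per the submitters' processing notes. Counting of intron reads is not stated. The deposited DMSO table held 4015 cells, 65675862 UMIs and 22469 genes, with 1804 to 5990 genes per cell, and no further cells were removed. Scrublet (scanpy 1.11.5) was run on it at an expected rate of 0.06 and its calls were used as an alternative. The rule, class sums, CPM, ratios and exact binomial (Clopper-Pearson) intervals were computed in Python 3.11.15 with scipy 1.17.1, with 0.5 added to each count for log2 ratios, and TMM factors with edgeR 4.0.16. Named genes were the rule genes, the 15 highest and 10 lowest ratios among genes with a mean of at least 50 CPM, ranked by the bound nearest to 1, up to 4 genes per list with the largest log2 ratios, and TBX2, TBX3, NPPA, SHOX2, CDKN1A, CDKN1B and CDKN1C, with others chosen after their values were seen. Members and lists were chosen with earlier results of these data known. Genes listed under older symbols were matched through RefSeq synonyms. Thinning to 8000 UMIs left out 38 members and 287 low-cycling muscle cells.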

Additional observations from a re-analysis of the deposited data

How the results depend on the processing

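The number of genes past 1.5-fold stayed within 1.5 times of 660 higher and 417 lower under most of the 14 alternatives. The exceptions were a minimum of 2 mean CPM, with 1392 higher and 1172 lower, a minimum of 50 mean CPM, with 200 higher and 80 lower, and thinning to 8000 UMIs before the rule, with 630 lower. These minimums also set how many genes are measured. The share of members was 15.1% when at least 3 genes were asked for, 9.94% with at least 6, 9.89% at a muscle share of at least 0.5 of the percentile, 11.4% after thinning, and 9.51% at that muscle share without Scrublet calls, an alternative chosen after seeing the data. All 15 highest genes stayed past the fold in the same direction under all 14 alternatives, and so did the 10 lowest except NPPB after thinning. List medians of mitotic, replication, histone, sarcomere and calcium handling genes kept their sign under all 14. The cytokinesis median log2 ratio, 3.52 in the main setting, ranged from 0.38 to 3.89 under them, and its lowest value passed no fold. Medians closer to 0 changed sign under 9 alternatives for endothelial markers, 6 for neural markers, 2 each for glycolysis, epicardial and smooth muscle lists, and 1 each for cycle inhibitors, fibroblast markers, G1 and S regulators (0.21 at a minimum of 2 CPM) and growth signalling (0.05 at the higher muscle share). Log2 ratios of high genes that moved by over 1.5-fold were DLGAP5, 7.87 and 8.63 after thinning, HMMR and PTTG1, 6.16 and 5.45 and then 6.75 and 6.12 against cells with 0 of the genes, AURKB, 6.46 and 5.82 against cells matched by total UMIs, and GTSE1, 7.55 and between 6.32 and 8.41. No paired analysis was possible because each group had 1 single-cell library. Depth limits genes near 3 UMIs per class, which is 0.63 CPM in members and 0.129 CPM in low-cycling muscle cells.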
